A study of Mus musculus with 2 samples.

Results

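The genes described here encode the initiation and elongation factors of cytosolic translation in mouse embryonic stem (ES) cells that carry a Dgcr8 knockout. They were chosen by name: the symbol starts with Eif1, Eif2b, Eif2s, Eif3, Eif4, Eif5, Eif6, Eef1 or Eef2, the gene is annotated as protein-coding in GENCODE release M21, and it lies on an autosome. Of the 43629 rows of the count tables, 58 met this rule, and they were sorted into 13 groups by complex or function. Another 3 symbols of the family, Eif1ax, Eif2s3x and Eif2s3y, lie on the sex chromosomes and are given with the related pathway genes.

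Polyadenylated RNA of the knockout cells was sequenced in 2 libraries of 1 group, replicates A and B. Both are labelled with the genotype Dgcr8 knockout, the 129/Ola strain background, blastocyst as the tissue and passage 7. Their titles also carry the codes KO2 and d5, which no label explains. The series title names a paired CRISPR/Cas9 approach, and no label tells whether the replicates were separate cultures or 1 clone. SDs therefore measure only the spread between these libraries, which may be technical. The p-values set the difference between the libraries against the counting error of reads alone, without an estimate of variation between cultures. No wild-type library was analysed here, so the values are levels in these cells and not changes caused by the loss of Dgcr8, a subunit of the Microprocessor that cuts primary microRNA transcripts.

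Translation of most messenger RNAs starts when the small ribosomal subunit, loaded by eIF2 with GTP and initiator tRNA and held by eIF1, eIF1A and eIF3, is brought to the cap by the eIF4 factors and scans to a start codon. eIF2B recharges eIF2 with GTP, eIF5 and eIF5B drive GTP hydrolysis and joining of the large subunit, and the eEF1 and eEF2 factors then deliver aminoacyl-tRNAs and move the ribosome along the message. ES cells divide fast, and control of these steps through eIF2 phosphorylation and the cap-binding complex is among the known layers of regulation in pluripotent cells.

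The libraries held 27872396 (A) and 30327146 (B) counts. Dgcr8 itself held 1253 counts in A and 1942 in B, and since a count per gene does not show which exons the reads came from, these counts do not check the genotype. All 8 ES cell markers reached 1 CPM (1 count in every 1000000 of a library) in A as in B, with a summed level of 9212 CPM in A and 6118 in B. Fibroblast markers summed to 34.4 and 23.6 CPM (2 of 6 reaching 1 CPM in both, Postn at 0 counts in both), primitive endoderm markers to 10.3 and 25.1 CPM (2 of 6) and blood markers to 14.9 and 23.9 CPM (1 of 4). Dppa5a alone gave 4252 and 1767 CPM of the ES cell sum. Thy1 alone gave 31.4 and 21.9 CPM of the fibroblast sum, and Cd68 alone 14.8 and 23.7 CPM of the blood sum. Of the endoderm sum, Cubn gave 1.51 and 14.3 CPM and Gata4 7.10 and 4.91. Differences between the libraries followed the GC content of transcripts, with values given below.

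Translation factor transcripts were abundant. Levels per length are given in RPKM, counts per 1000 bases of the longest protein-coding transcript and per 1000000 counts of the library. The median level over the 58 genes was 92.5 RPKM in A and 112 in B, and 109.5 for the mean of both libraries. The median over the 11984 protein-coding genes that reached 1 CPM in both libraries was 9.29 RPKM. Above that median lay 48 of the 58 translation factors, 34 of them in the top 10%, and 5 of the 58 lay in the bottom 10%. Together the 58 genes took 3.80% of all counts in A and 3.26% in B.

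**Figure D1:**
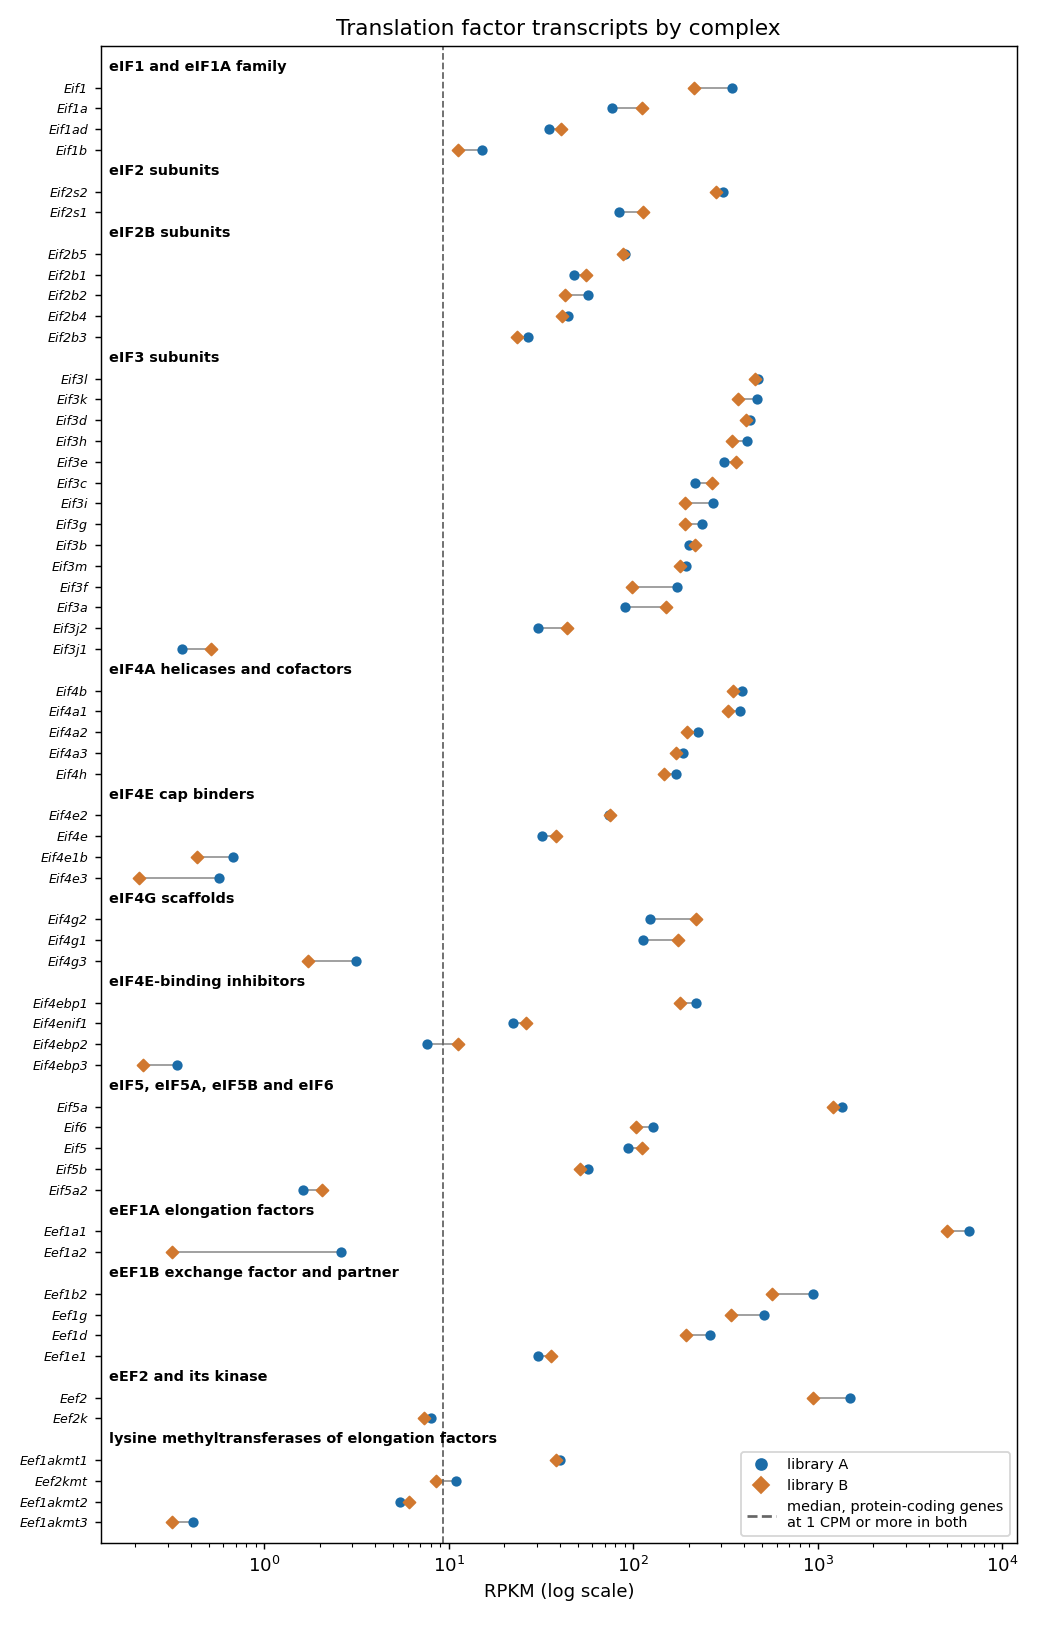
Level of each of the 58 translation factor genes in RPKM (log axis) in library A (circles) and library B (diamonds), grouped by complex; the dashed line is the median of the protein-coding genes that reached 1 CPM in both. Eef1a1 stands highest at 6602 and 4989.6 RPKM, and low paralogs such as Eif3j1, Eif4e3 and Eef1a2 stand far to the left of the other members of their groups.

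Of the 13 groups, 12 had a median level above that of protein-coding genes at large. The group medians were highest for eEF1A at 2899 RPKM, eEF2 and its kinase at 614 and the eEF1B group at 326, followed by eIF3 at 222, eIF4A and its cofactors at 209.8 and eIF2 at 196. They were lower for eIF4G at 144, the group of eIF5, eIF5A, eIF5B and eIF6 at 103, eIF1 and eIF1A at 66.2, eIF2B at 49.7, the eIF4E cap binders at 17.8 and the eIF4E-binding inhibitors at 16.9. The lysine methyltransferases that modify elongation factors were the group under the background, at 7.78 RPKM. The first 2 medians are midpoints of 2 unlike genes, Eef1a1 (5796 RPKM) and Eef1a2 (1.46), and Eef2 (1221) and Eef2k (7.65). The order also rests on the transcript length used. With the median length of the protein-coding transcripts, eIF4G (284) passed eIF2 (210), eIF2B (110) passed eIF1 and eIF1A (88.1), and the cap binders rose to 77.8. In the order of all members by RPKM, 45 of the 57 neighbouring pairs had ranges over the libraries that overlapped, so most neighbours in the order are not set apart.

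An exact binomial test on the counts of each gene, with TMM-scaled library sizes and Benjamini-Hochberg adjustment, compared A with B over the 14583 genes that reached 1 CPM in at least 1 library. It compares 2 libraries, not conditions. Of the 57 translation factors tested, 46 (80.7%) passed an adjusted p under 0.05, where 76.8% of all tested genes did. Higher in B were 20 of the 57 (background 38.4%) and higher in A were 26 (background 38.4%). A difference of at least 1.5-fold was called for 12 of the 57 (21.1%, background 37.9%), 6 of them higher in B (background 18.5%) and 6 higher in A (background 19.4%). Log2 ratios below set B over A after TMM scaling, with 0.5 added to each CPM, which understates the ratios of low genes. Of the 57, 53 reached 1 CPM in both libraries and 4 (Eif4e1b, Eif4e3, Eef1a2 and Eef1akmt3) in A alone. Eif4e3 and Eef1a2 are among the 6 called at least 1.5-fold higher in A, the library through which they entered the test. Eif4ebp3 was under 1 CPM in both and was not tested.

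The eIF1 and eIF1A family sets the accuracy of scanning. Eif1 (ENSMUSG00000035530, chr11:100319885-100322096 on GRCm38), which rejects poor start codons, had 344 RPKM in A and 214 in B. Its paralog Eif1b (chr9:120492232-120495330) had 15.2 and 11.2 RPKM, so Eif1 was 22.7-fold higher per length in A and 19.1-fold in B, far more than either gene moved between libraries. Eif1a, which encodes the autosomal form of eIF1A, had 77.2 RPKM in A and 112 in B, and Eif1ad, which encodes a protein with an eIF1A-like domain, lay between Eif1a and Eif1b at 35.0 and 40.6 RPKM. All 4 genes were called between libraries (background 76.8%), Eif1a and Eif1ad higher in B and Eif1 and Eif1b higher in A. After correction for GC content and length, described below, Eif1b lost its call (log2 ratio 0.06; exact binomial test, adjusted p = 0.71). Since the strand setting of the counting is not stated, overlapping genes are uncertain: an exon overlap on the opposite strand touches 15.3% of the exon bases of Eif1ad (with Banf1) and 12.7% of those of Eif1b. Such overlap exceeded 10% for 6 members. The others were Eif3d, given below, Eef2kmt (23.0%, with Alg1 and Gm15983), Eif3j1 (19.0%, with Spg11) and Eif5b (16.8%, with Rev1).

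The autosomal eIF2 subunits, which carry the initiator tRNA, differed in level. Eif2s1, the alpha subunit whose phosphorylation by stress kinases slows initiation, had 83.6 RPKM in A and 113 in B. Eif2s2, the beta subunit, had 305 and 281 RPKM, so it was higher than Eif2s1 in both libraries, by 3.65-fold in A and 2.50-fold in B. Eif2s1 was higher in B with a log2 ratio of 0.52 (exact binomial test, adjusted p = 2.6e-138), and Eif2s2 did not pass the test (log2 ratio −0.02, adjusted p = 0.093). With the correction for GC content and length these ratios were 0.07 and −0.32, and both passed (exact binomial test, adjusted p = 0.0018 and 5.1e-119). Eif2s1 thus kept the higher ratio, while the subunit that differed more between libraries changed from Eif2s1 to Eif2s2. Reads were also counted at Gm9892, a processed pseudogene of Eif2s2 on chromosome 8 that is 99.5% identical to its coding sequence, with 9716 counts in A and 11101 in B beside 21637 and 21699 at Eif2s2. The pseudogene thus held 31.0% and 33.8% of the sum. With its counts added to the gene, the log2 ratio of Eif2s2 without the correction was 0.04. A stretch of 90 coding bases (bases 21 to 110 of the Eif2s2 coding sequence, and chr8:52196947-52197036, minus strand, for Gm9892) is shown because it holds 1 of the 5 bases that tell the copies apart, set in capitals where it differs from Eif2s2. The sequences here and below are from GENCODE release M21 and GRCm38, and were chosen after the pseudogene counts were seen.
Eif2s2: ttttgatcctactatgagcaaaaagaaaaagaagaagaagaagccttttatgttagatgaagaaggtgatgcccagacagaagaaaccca
Gm9892: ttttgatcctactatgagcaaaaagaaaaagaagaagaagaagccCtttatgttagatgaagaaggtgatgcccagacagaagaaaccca

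The sources used here do not give the read length or the handling of reads with several matches. Reads that cover none of the differing bases cannot be told apart between a gene and such a copy, so the counts of both are uncertain.

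The 5 subunits of eIF2B, the exchange factor that recharges eIF2 with GTP, lay close together. The highest was the catalytic subunit gene Eif2b5 with 90.8 RPKM in A and 87.8 in B, and the lowest was Eif2b3 with 27.0 and 23.6. Eif2b1, Eif2b2 and Eif2b4 lay between them, at 41.0 to 56.8 RPKM over both libraries. The highest subunit exceeded the lowest by 3.37-fold in A and 3.73-fold in B. Eif2b1 was higher in B, Eif2b2 and Eif2b3 were higher in A, and Eif2b4 and Eif2b5 did not pass the test. With the GC and length correction Eif2b4 (log2 ratio 0.48) and Eif2b5 (0.27) were called higher in B, and Eif2b2 turned to 0.11. None of the 5 had a matching pseudogene.

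The eIF3 complex, the scaffold that binds the small ribosomal subunit, was represented by 14 genes. Its 12 subunit genes other than the Eif3j pair, namely Eif3a, Eif3b, Eif3c, Eif3d, Eif3e, Eif3f, Eif3g, Eif3h, Eif3i, Eif3k, Eif3l and Eif3m, lay within 5.25-fold of each other in A and 4.68-fold in B. The highest was Eif3l with 472 RPKM in A and 458 in B (465 ± 9.57, SD, n = 2), next to Eif3k at 471 and 370.2 and Eif3d at 427 and 408. The lowest of the 12 by mean level was Eif3a, which encodes the large subunit at the core of the complex, with 89.8 RPKM in A and 151 in B.

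Between libraries the eIF3 genes moved in both directions, 7 of them higher in B, 5 in A and 2 (Eif3d and Eif3m) not called, so that 12 of 14 were called (background 76.8%). Eif3a was higher in B with 12834 counts in A and 23440 in B, a log2 ratio of 0.84. Eif3f, which encodes one of the subunits with an MPN domain, went the other way with 12094 and 7464 counts, a log2 ratio of −0.72 (exact binomial test, adjusted p = 1.8e-261). The ranking of these 2 genes depended on the library: in A Eif3f was the higher of the pair at 173 against 89.8 RPKM, and in B it was the lower at 97.9 against 151. Eif3d shares 43.3% of its exon bases with Gm17638 on the opposite strand.

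The loosely bound eIF3j subunit has a pair of genes in the annotation, and nearly all of its counts were at the one without introns. Eif3j2, a gene of 1 exon, had 30.4 RPKM in A and 44.0 in B from 2017 and 3175 counts. Eif3j1 (chr2:122028546-122056598), with 8 exons in its longest protein-coding transcript, had 0.358 and 0.512 RPKM from 54 and 84 counts. Eif3j2 was 85.0-fold higher per length in A and 86.0-fold in B. The coding sequences are 99.7% identical, and the transcripts share an identical run of 1107 bases. Of the 50-base windows of Eif3j2, 91.8% also occur in transcripts of other genes, against 54.8% for Eif3j1, so the split of counts between the pair is uncertain. Gm3650, a pseudogene that matches Eif3j1, held 120 counts in A and 75 in B, more than the gene in A and fewer in B.

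The eIF4A group holds the RNA helicases that unwind the leader of a message and their stimulating cofactors. The cofactor gene Eif4b was highest with 387 RPKM in A and 345 in B, and the cofactor gene Eif4h was lowest with 170.5 and 146. Eif4a1 (chr11:69666936-69672423, minus strand), the main helicase gene of dividing cells, had 381 and 326 RPKM (354 ± 39.1, SD, n = 2). Its paralog Eif4a2 (chr16:23107444-23114136, plus strand) had 223 and 196, a ratio of 1.71 in A and 1.66 in B (1.07 for the mean with the median length of the protein-coding transcripts). Eif4a3, whose product is a core part of the exon junction complex, had 185 and 170.4 RPKM. The highest gene of the group was 2.27-fold above the lowest in A and 2.36-fold in B. All but Eif4a3 were called higher in A (4 of 5, background 38.4%), by log2 ratios of −0.07 to −0.13. With the GC and length correction Eif4h (0.23) and Eif4a3 (0.35) were called higher in B.

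Among the 48 members above the background median, Eif4a1 had the largest share of counts at pseudogenes. Eif4a-ps4, a processed pseudogene on chromosome 1, matches the coding sequence of Eif4a1 over 1218 bases with 1 differing base, and it held 46108 counts in A and 49422 in B against 18855 and 17542 at Eif4a1. The matching pseudogenes thus held 71.0% of the sum in A and 73.8% in B. With these counts added to the gene, the ratio of Eif4a1 to Eif4a2 was 5.88 in A and 6.35 in B, and the log2 ratio between libraries went from −0.13 to 0.02. Over 1083 aligned coding bases Eif4a2 is 77.6% identical to Eif4a1, and the longest identical run of the transcripts is 20 bases. The stretch that holds the differing base (coding bases 489 to 578 of Eif4a1 and 492 to 581 of Eif4a2, and chr1:60704420-60704509, plus strand, for the pseudogene) is shown to set the near-identical pseudogene beside the paralog. Capitals mark bases that differ from Eif4a1, 1 in the pseudogene and 15 in the paralog.
Eif4a1: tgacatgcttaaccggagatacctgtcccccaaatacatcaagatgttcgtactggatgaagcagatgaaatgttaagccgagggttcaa
Eif4a-ps4: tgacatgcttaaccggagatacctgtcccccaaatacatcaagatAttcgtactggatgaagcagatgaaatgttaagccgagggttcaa
Eif4a2: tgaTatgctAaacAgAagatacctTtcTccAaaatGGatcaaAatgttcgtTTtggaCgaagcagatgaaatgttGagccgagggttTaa

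Among the cap binders, Eif4e2 and Eif4e held nearly all counts. Eif4e2, which encodes the homologue 4EHP that binds the cap without recruiting eIF4G, had 74.4 RPKM in A and 75.3 in B. Eif4e (chr3:138526179-138559696), the cap-binding subunit of the initiation complex, had 32.1 and 38.1 RPKM, so Eif4e2 was 2.32-fold higher in A and 1.98-fold in B. This order rests on the transcript length used: with the median length of the protein-coding transcripts in place of the longest, Eif4e was the higher of the pair by 1.32-fold. Eif4e1b, known from oocytes, had 0.673 and 0.433 RPKM, and Eif4e3 had 0.571 and 0.210, both from 40 or fewer counts per library. These low genes passed the 1 CPM filter through library A alone, and Eif4e3, at 40 and 16 counts, had a log2 ratio of −0.85. Since it entered the test through the library where it is high, its call of higher in A is given no weight.

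The eIF4G scaffolds, which join the cap binder, the helicase and eIF3, were split by paralog. Eif4g2, whose product (DAP5) lacks the eIF4E-binding region, had 124 RPKM in A and 219 in B. Eif4g1 (chr16:20668313-20692884), the main scaffold, had 113 and 175 RPKM, and Eif4g2 was 1.10-fold and 1.25-fold above it, or 6.30-fold with median transcript lengths. Eif4g3 (chr4:137993022-138208508), a paralog of Eif4g1, had 3.14 and 1.73 RPKM. Eif4g1 was therefore 35.9-fold higher than Eif4g3 in A and 101-fold higher in B. Eif4g2 had 27544 counts in A and 53098 in B (log2 ratio 0.92), and Eif4g1 had 17687 and 29860 (0.73). Eif4g3 was higher in A, with 711 and 426 counts (−0.75; exact binomial test, adjusted p = 3.8e-18).

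Of the inhibitors that hold eIF4E, Eif4ebp1 was the most abundant. Eif4ebp1 (chr8:27260329-27276674), a target of the mTOR kinase, had 218 RPKM in A and 179.8 in B. Eif4ebp2 (chr10:61428491-61452661) had 7.60 and 11.2 RPKM, so Eif4ebp1 was 28.7-fold higher in A and 16.0-fold in B, and 13.4-fold for the mean with median transcript lengths. Eif4ebp2 was higher in B with 1226 and 1966 counts, a log2 ratio of 0.65 (exact binomial test, adjusted p = 1.4e-35). Eif4ebp3 held 7 counts in A and 5 in B, or 0.251 CPM (95% Poisson interval 0.101 to 0.517) and 0.165 CPM (0.0535 to 0.385), and 67.3% of its exon bases are shared with another gene of the same strand. Eif4enif1, which shuttles eIF4E and represses bound messages, had 22.4 and 26.3 RPKM. Poisson intervals cover counting error only.

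The genes of the eIF5, eIF5A, eIF5B and eIF6 group ranged widely, from Eif5a to its paralog Eif5a2. Eif5a (chr11:69916714-69921958), whose hypusine-modified product helps ribosomes past slow peptide bonds, had 1357 RPKM in A and 1208 in B (1282 ± 105, SD, n = 2). By mean level it came next after Eef1a1, with a range over the libraries that overlapped that of Eef2. Eif5a2 (chr3:28781276-28798846), its paralog, had 1.61 and 2.06 RPKM from 226 and 314 counts, so Eif5a was 841-fold and 587-fold higher per length, and 425-fold for the mean with merged exon lengths. Eif6, which keeps free large subunits from joining too early, had 129 and 104 RPKM, and Eif5, which triggers GTP hydrolysis by eIF2, 94.3 and 111. Eif5b, the GTPase of subunit joining, had 56.7 and 51.5 RPKM. All 5 genes were called (background 76.8%), Eif5 and Eif5a2 higher in B and Eif5a, Eif5b and Eif6 higher in A, none by 1.5-fold. With the GC and length correction 4 of the 5 changed direction, of which Eif5a2 was no longer called (exact binomial test, adjusted p = 0.052). Eif5b went from −0.05 to −0.69.

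Eef1a1 (ENSMUSG00000037742, chr9:78478449-78489151, minus strand), which delivers aminoacyl-tRNA to the ribosome, had 6602 RPKM in A and 4989.6 in B (5796 ± 1140.3, SD, n = 2). By mean level it was the highest of the 11984 protein-coding genes per length, though in A the ES cell marker Dppa5a was higher at 6869 RPKM. Its 330134 and 271469 counts were 31.1% and 27.4% of the counts of all 58 genes. Eef1a2 (chr2:181147653-181157014, minus strand), the form of neurons and muscle, had 151 counts in A and 20 in B, or 5.42 CPM (95% Poisson interval 4.59 to 6.35) and 0.659 CPM (0.403 to 1.02). These intervals do not overlap, and the log2 ratio was −2.28. Eef1a2 entered the comparison through A alone, the library where it is high, so its call and its place among the differences are shaped by the 1 CPM filter. Per length Eef1a1 exceeded Eef1a2 by 2539.7-fold in A and 15768-fold in B, the latter on 20 counts of Eef1a2, and by 13216-fold for the mean with median transcript lengths.

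Of the 19 matching pseudogenes of Eef1a1, 9 have a row, and they held 50358 counts in A and 46949 in B, 13.2% and 14.7% of the sum. Most were at Gm13456 on chromosome 2, with 43753 and 40870 counts. A stretch of 90 coding bases (bases 127 to 216 of Eef1a1 and of Eef1a2, and chr2:40555853-40555942, plus strand, for Gm13456) is shown because the pseudogene differs from Eef1a1 in 1 base there and the paralog in 18, set in capitals. Gm13456 is 98.6% identical to Eef1a1 over 1361 aligned coding bases, and Eef1a2 is 79.9% identical over 1386, with a longest identical run of 23 bases between the transcripts of the paralogs. No 50-base window of Eef1a2 occurs in a transcript of another gene.
Eef1a1: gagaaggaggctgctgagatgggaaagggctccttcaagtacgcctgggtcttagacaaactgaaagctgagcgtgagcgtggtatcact
Gm13456: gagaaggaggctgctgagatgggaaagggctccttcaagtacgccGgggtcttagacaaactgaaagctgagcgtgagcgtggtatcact
Eef1a2: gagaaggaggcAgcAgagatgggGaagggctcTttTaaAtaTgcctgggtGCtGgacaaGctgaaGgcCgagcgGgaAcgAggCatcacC

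**Figure D2:**
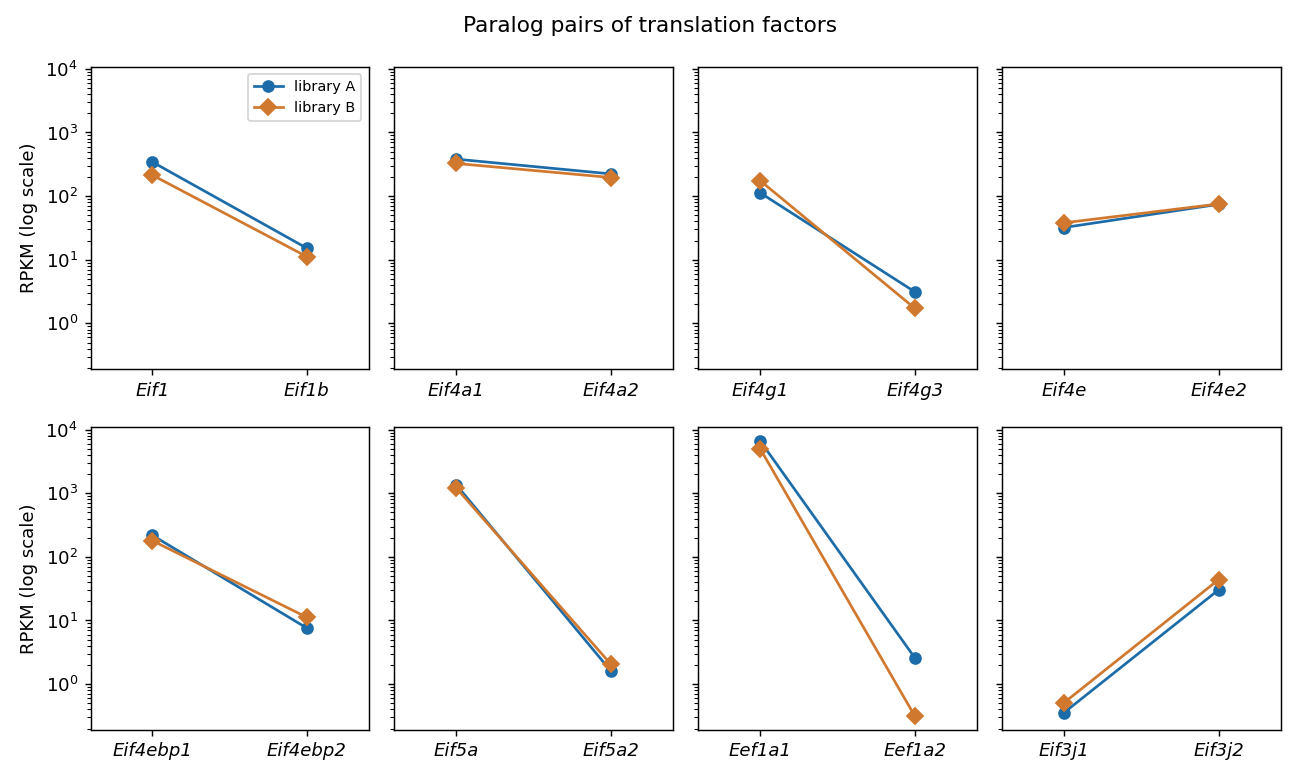
Levels of the 8 paralog pairs in RPKM (log axis), with a line joining the 2 genes of a pair within library A (circles) and within library B (diamonds). Steep lines, as for Eif5a over Eif5a2 at 841-fold and 587-fold, contrast with the shallow line of Eif4a1 and Eif4a2 at 1.71-fold and 1.66-fold.

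The eEF1B group recharges eEF1A with GTP. Eef1b2, a catalytic subunit gene, was highest with 947 RPKM in A and 568 in B, followed by the structural subunit gene Eef1g at 513 and 338 and the catalytic subunit gene Eef1d at 261 and 192. Eef1e1, whose product is a partner in the multi-synthetase complex, was lowest with 30.6 and 35.9 RPKM. All 4 genes were called (background 76.8%), the 3 exchange factor subunits higher in A and Eef1e1 higher in B. With the GC and length correction Eef1d lost its call (log2 ratio 0.03; exact binomial test, adjusted p = 0.052). Eef1b2 (−0.72) and Eef1g (−0.29) stayed higher in A and Eef1e1 (0.11) higher in B. Eef1b2 had the fifth largest excess in A among all members, with 51192 counts in A and 33401 in B and a log2 ratio of −0.64.

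Eef2, the translocase of elongation, had 1495 RPKM in A and 947 in B, 187-fold and 129.6-fold above Eef2k, the kinase that inhibits it, at 7.99 and 7.31 RPKM. With median transcript lengths this ratio was 15.9 for the mean of both libraries. Eef2 was called higher in A (log2 ratio −0.57), while Eef2k did not pass the test (−0.04; exact binomial test, adjusted p = 0.55). With the GC and length correction these ratios were −0.16 and −0.32, and both passed (exact binomial test, adjusted p = 2e-143 and 6.9e-09). The gene that differed more between libraries thus changed from Eef2 to Eef2k. Among the methyltransferases, Eef1akmt1 was highest at 40.2 and 38.3 RPKM, and Eef1akmt3 was lowest at 0.409 and 0.315 from 31 and 26 counts. Eef2kmt, which modifies eEF2, had 11.0 and 8.51 RPKM, and Eef1akmt2 had 5.48 and 6.11. Eef2kmt was the 1 gene of the 4 called (background 76.8%), higher in A. With the GC and length correction it lost its call (log2 ratio 0.07; exact binomial test, adjusted p = 0.51), and Eef1akmt1 was called higher in B (0.28).

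Pseudogenes were a general feature of the family. By alignment over at least 80% of the pseudogene at 90% identity or more, 95 annotated pseudogenes matched 28 of the 58 members. Of these pseudogenes 48 have a row in the count tables and 39 held counts, 114030 in A and 116412 in B in all. Pseudogenes held over 10% of the sum in both libraries for 6 members: Eif4a1, Eif3j1, Eif2s2, Eif3m (17.6% and 16.8%), Eef1a1 and Eif1 (12.9% and 15.9%). Eif4a1 alone was exceeded by its pseudogenes in both libraries. In contrast, 19 members shared no 50-base window with a transcript of another gene, among them Eif3a, Eif3b, Eif3l, Eif4g3 and the eIF2B genes Eif2b1, Eif2b2, Eif2b3 and Eif2b5. For 6 members over 50% of the windows were shared: Eif3j2 (91.8%), Eif4ebp3 (65.5%), Eif4a1 (65.3%), Eef1g (64.3%), Eef1a1 (60.6%) and Eif3j1 (54.8%).

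**Figure D3:**
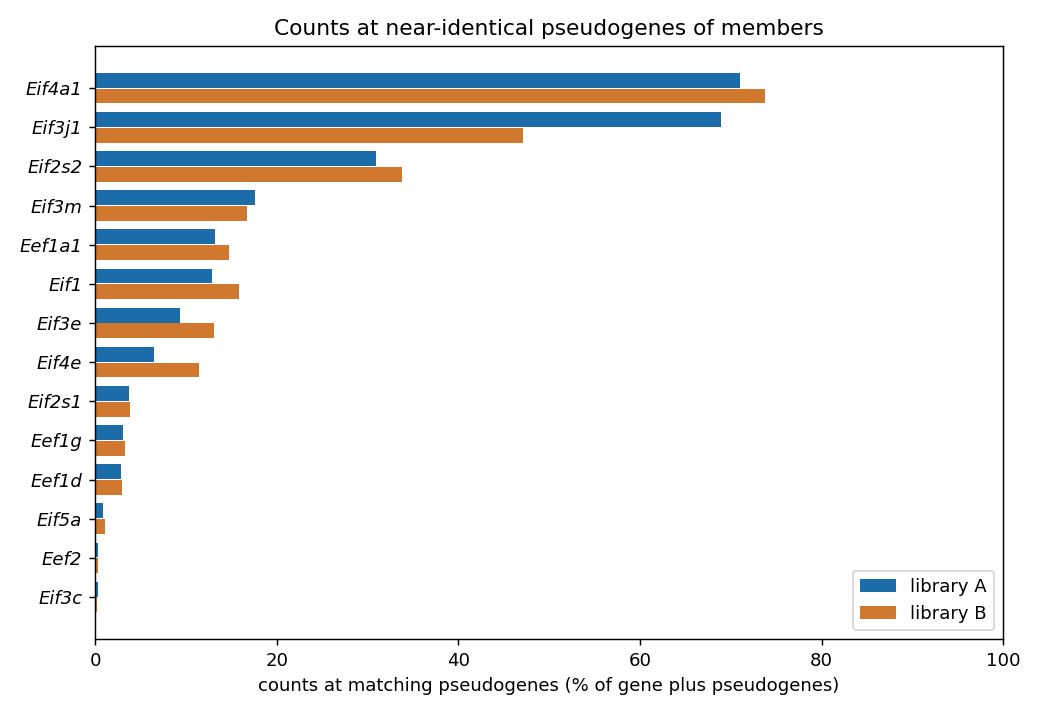
Counts at matching pseudogenes as a percentage of the counts at the gene plus its pseudogenes, for the 14 members whose pseudogenes held at least 50 counts in both libraries, with library A and library B as paired bars. Eif4a1 stands at 71.0% and 73.8% and Eif2s2 at 31.0% and 33.8%; Eif3j1, at 69.0% and 47.2%, rests on 174 and 159 counts at the gene and its pseudogene together.

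Log2 ratios of members ranged from −2.28 (Eef1a2) to 0.92 (Eif4g2). Towards A the 5 largest were those of Eef1a2, Eif4e3, Eif4g3, Eif3f and Eef1b2, of which Eef1a2 and Eif4e3 were tested only because of their level in A. Towards B the 5 largest were those of Eif4g2, Eif3a, Eif4g1, Eif4ebp2 and Eif1a (0.63). The median log2 ratio over the 57 tested members was −0.04, beside −0.01 over all annotated genes tested. The members differed in step with transcript composition. Across the 57 members the log2 ratio had a Spearman correlation of −0.48 with GC content and 0.44 with transcript length, beside −0.52 across 14509 genes and 0.36 across 14513. These correlations are descriptions across genes of the same 2 libraries. Over all tested genes the median log2 ratio went from 0.57 in the 10% of genes with the lowest GC content to −0.59 in the 10% with the highest.

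After subtraction of a fit to GC content and length over all tested genes, 26 of the 57 members were called higher in B (background 36.6%) and 21 higher in A (background 33.1%), or 47 in all where 69.7% of the genes corrected were called. Of the members called before, 14 changed direction, among them Eif5a (0.36) and Eif6 (0.38). Of the members called before, 7 were no longer called, some of them among those 14. Among the largest differences, Eif4g3 at −1.05, Eif3f at −0.69 and Eef1b2 at −0.72 kept their direction towards A. Eif4g1 at 0.72, Eif4ebp2 at 0.52, Eif3a at 0.39, Eif4g2 at 0.24 and Eif1a at 0.20 kept theirs towards B. Eef1a2 (−1.62) and Eif4e3 (−1.02) also stayed towards A, but they entered the test through A alone, so this is given no weight. Whether the difference in GC content accounts for any single gene was not tested.

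**Figure D4:**
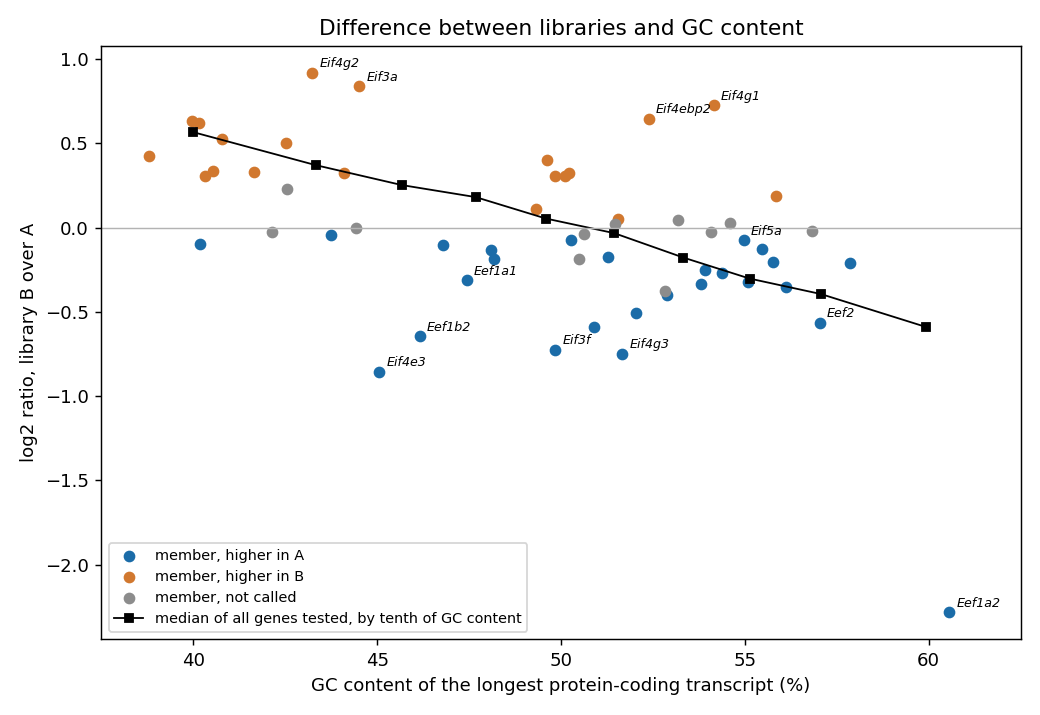
Log2 ratio of library B over A for the 57 tested members against the GC content of the longest protein-coding transcript (%), coloured by call, with the median of all genes tested in each 10% of genes by GC content (squares, joined). The line falls from 0.57 to −0.59, and Eif4g2, Eif3a and Eif4g1 lie above it while Eif3f, Eef1b2, Eif4e3 and Eef1a2 lie below.

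Pathway genes outside the naming rule or on the sex chromosomes had a lower median level. All 37 genes of the list, which was drawn up for this comparison, reached 1 CPM in A and B, at a median level of 20.6 RPKM. By the exact binomial test 18 of the 37 were higher in B (background 38.4%) and 8 in A (background 38.4%), while 11 did not pass. Among the poly(A) and cap partners, Pabpc1, the main poly(A)-binding protein, was highest with 1174 RPKM in A and 1449 in B, and Paip1, which binds it, was lowest with 13.2 and 13.1. By mean level over the kinases, Mknk2 was highest and Rps6kb2 lowest. Mknk2, which phosphorylates eIF4E, had 25.4 and 15.7 RPKM and Rps6kb2, an S6 kinase, 5.33 and 4.64, so all 10 kinase genes lay at or under 25.4 RPKM.

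The regulatory subunits that direct a phosphatase to eIF2 were close in A and apart in B, Ppp1r15b with 23.8 RPKM in A and 36.8 in B and Ppp1r15a with 24.1 and 17.9. With the GC and length correction the log2 ratio of Ppp1r15b went from 0.72 to 0.41. That of Ppp1r15a went from −0.34 to 0.03 and lost its call (exact binomial test, adjusted p = 0.7). Of the noncanonical initiation factors, Eif2a was highest by mean level at 68.1 and 78.7 RPKM, though Denr was higher in A at 69.1, and Mcts1 was lowest at 32.6 and 37.3. The hypusine enzymes that modify eIF5A had 60.4 and 43.3 RPKM (Dohh) and 21.9 and 27.9 (Dhps). The enzymes that make diphthamide on eEF2 ran by mean level from Dph3 at 15.9 and 14.9 RPKM to Dph1 at 6.51 and 9.53, with Dph2 lower than Dph1 in B at 8.35.

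Of the genes listed under termination and recycling, Etf1, which reads stop codons, was highest at 128 and 219 RPKM. Abcf1, placed there by the list and not shown to act in these steps, was lowest by mean level at 99.9 and 94.6. Without it Abce1 was lowest by mean level, at 69.7 and 128, and in A it was the lowest of the group. Of the sex-linked subunit genes, Eif2s3y, the Y-linked gene of the gamma subunit of eIF2, had 32.4 and 28.0 RPKM, its X-linked counterpart Eif2s3x 9.86 and 18.6, and Eif1ax 25.3 and 23.0. Eif2s3x had the largest excess in B of the 37 genes, a log2 ratio of 1.00 (exact binomial test, adjusted p = 6e-77). With the GC and length correction its ratio was 0.67, below that of Dph1 at 1.09.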

How the data were processed

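The deposited files hold raw counts for each Ensembl gene in 1 library apiece, with no scaling by the authors. Tools listed without a role in the submitters' processing notes are featureCounts 1.4.5-p1 and STAR 2.4.2a, with mm10 as the build; per the labels' protocols the libraries came from a TruSeq kit and were reverse-stranded. The annotation release, strand setting, read length and multi-mapping treatment were not given in the sources used here. Genes were matched by identifier to GENCODE M21 on GRCm38 (42548 of 43629 rows).

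CPM and RPKM were computed on library totals. Libraries were compared with an exact two-sided binomial test given TMM-scaled sizes (edgeR 4.0.16, R 4.3.3; factors 1.03 for A and 0.968 for B), Benjamini-Hochberg adjusted, called under 0.05, and checked on simulated data. The TMM factors were first computed over all rows and then, after that result was seen, over the tested genes; the former is given as an added alternative. Pseudogenes were aligned with blastn 2.17.0, each assigned to its best-scoring member. The correction for GC content and length used natural splines with 4 degrees of freedom.

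The members, the lists and the comparisons were chosen with earlier results of these data known. Values were named for the highest and lowest member of each complex, for 8 paralog pairs, for members under 1 CPM in both libraries, for the 5 largest ratios in each direction and for the highest and lowest gene of each pathway group; other genes, the shared windows, exon overlaps, sequence identities and medians by GC content were chosen after values were seen. Alternatives covered scaling (DESeq2 1.42.0 size factors, library totals), filters, pseudocounts, Fisher's exact test, transcript length, pseudogene counts and each library alone.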

Additional observations from a re-analysis of the deposited data

How the results depend on the processing

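The counts of members called kept within 1.5 times of the main ones under every alternative run, from 17 to 26 higher in B and from 21 to 33 higher in A. With TMM over all rows, added after seeing the data, 22 were higher in B and 25 higher in A. The median level of the members was 68.7 RPKM with merged exon lengths and 178.8 with median transcript lengths, and from 92.5 to 111.6 RPKM over the libraries taken alone. With median transcript lengths the log2 ratio of Eif4e over Eif4e2 was 0.41 in place of −1.10.

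Correction for GC content and length moved the members' median log2 ratio between libraries from −0.04 to 0.039 and reversed Eif1b (0.059), Eif2b2 (0.11), Eif3g (0.30), Eif3h (0.039), Eif3j1 (−0.064), Eif3k (0.16), Eif4h (0.23), Eif4e (−0.28), Eif5 (−0.15), Eif5a (0.36), Eif5a2 (−0.29), Eif6 (0.38), Eef1d (0.032) and Eef2kmt (0.069). Under it 7 members lost their call: Eif3e (0.0097) and Eif4e2 (0.018), and of the reversed members Eif1b, Eif3j1, Eif5a2, Eef1d and Eef2kmt. The reversal of those reversed members is of sign only. A call was gained by 8 members: Eif2s2 (−0.32), Eif2b4 (0.48), Eif2b5 (0.27), Eif3d (0.41), Eif3m (−0.095), Eif4a3 (0.35), Eef2k (−0.32) and Eef1akmt1 (0.28). Adding pseudogene counts reversed Eif3j1 (−0.15) and Eif4a1 (0.015), and library totals without TMM reversed Eif3l (−0.042). By construction these alternatives take out the shift with GC content and length, add the pseudogenes' counts or change the scale.

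No paired analysis was possible because the series has 1 group. With 2 libraries and no wild type, levels rest on n = 2. Members of few counts (Eif4ebp3, Eif4e3, Eef1a2 in B) have wide counting intervals, which leave out the spread between libraries.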
